A study of Gallus gallus with 2 samples.

Results

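A set of 10 genes of antigen presentation by major histocompatibility complex (MHC) class I and of the interferon response were followed through the cell groups of the chicken thymus. They are BF1, BF2, TAP1, TAP2, B2M, NLRC5, EPSTI1, OASL, IRF1 and IRF7, chosen by gene symbol, and make up 10 of the 28951 genes in the count matrices, 12907 of which carry a symbol. All 10 had unique molecular identifiers (UMIs, counted RNA molecules) in both libraries.

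A class I molecule is a heavy chain held at the cell surface by beta-2-microglobulin, with a peptide from inside the cell in its groove. In the chicken the heavy chains are encoded by BF1 and BF2, a pair of closely similar genes in a compact MHC in which the genes of the peptide transporter, TAP1 and TAP2, lie between them. B2M encodes the light chain. NLRC5 is known in mammals as the transactivator of class I genes. IRF1 and IRF7 are transcription factors of the interferon response, OASL belongs to the oligoadenylate synthetase family that interferon induces, and EPSTI1 is an interferon-stimulated gene in mammals. In the thymus, class I molecules on the stroma present the peptides on which CD8 T cells are selected, and thymocytes pass from a CD4+ CD8+ double-positive (DP) stage to mature CD4 or CD8 single-positive cells.

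On GRCg7b, BF1 lies on chromosome 16 from 2213458 to 2216245, TAP1 from 2216246 to 2221587, TAP2 from 2221658 to 2225172 and BF2 from 2226703 to 2229465. These 4 genes span 16008 bp and no other annotated gene overlaps that stretch. The gap between TAP1 and TAP2 is 70 bp, that between TAP2 and BF2 is 1530 bp, and BF1 and TAP1 abut. The other members are spread over 6 chromosomes, with B2M on chromosome 10 (1355773 to 1358713), NLRC5 on 11 (610641 to 648121), EPSTI1 on 1 (166549243 to 166601862), OASL on 12 (3411598 to 3413627), IRF1 on 13 (16493644 to 16499641) and IRF7 on 5 (15442326 to 15445784). Coordinates are those of the RefSeq genes that matched by symbol, gene bodies with introns included.

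The samples are 2 single-nucleus RNA libraries of flash-frozen thymus from female chickens aged 5 weeks, with no treatment, genotype or condition to compare. The labels do not say whether the libraries came from separate birds. Every p-value below thus rests only on how group differences vary between these 2 libraries, a spread that may be technical. Replicate 1 kept 4861 nuclei with a median of 661 UMIs and replicate 2 kept 5239 nuclei with a median of 827 UMIs, and 13 cell barcodes occurred in both. Levels are given as CPM, the UMIs of a gene per 1000000 UMIs of all genes in the nuclei of a group in a library, each followed where useful by the UMI number it rests on. Genes of different length are not compared with each other.

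The deposited files give no cell types, so nuclei were clustered without the 10 genes and without the pathway genes described below, and 16 groups were named from marker genes. The names were rebuilt from markers and the scoring rule was set after the data were seen. DP-like nuclei (1358 and 1807 in replicates 1 and 2) held RAG1, a recombinase gene of antigen receptor rearrangement, at 1203 and 1042 CPM and CD8A at 553 and 562 CPM. Mature T-like nuclei (430 and 394) held RAG1 at 7.37 and 0 CPM and the egress receptor gene S1PR1 at 253 and 279 CPM, against 12.1 and 7.45 CPM in DP-like nuclei. GNLY, a gene of cytotoxic granules, was among their leading genes at 256 and 422 CPM, with no UMI in DP-like nuclei, and the progenitor receptor gene KIT stood at 66.3 and 61.7 CPM, against 2.68 and 0 CPM. Whether all nuclei of the group had passed through the DP stage was not tested. Signalled T-like nuclei (clusters with 693 and 666 and with 68 and 62 nuclei) were marked by the activation gene NR4A3 at 747 and 1464 CPM. CD4 single-positive-like nuclei (163 and 212) held CD40LG at 193 and 130 CPM. An order of the T-lineage groups in development was not tested. The γδ-like nuclei (clusters with 260 and 278 and with 29 and 37) held the γδ factor SOX13 at 1874 and 2332 CPM. γδ T cells are known to branch off before the DP stage, so DP-like nuclei are a reference level for them and not an earlier stage. No CD8 single-positive group was separated, and the mature T-like group held both CD4 (46.7 and 79.0 CPM) and CD8A (22.1 and 38.6 CPM) at low level.

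BF1 and BF2, the class I heavy chains, were at the limit of detection in DP-like nuclei and abundant in mature T-like nuclei. BF1 had 0 and 1 UMI in DP-like nuclei (0 and 0.828 CPM) and 73 and 124 UMIs in mature T-like nuclei (179 and 239 CPM). BF2 had 2 and 1 UMIs in DP-like nuclei (2.68 and 0.828 CPM) and 93 and 215 in mature T-like nuclei (228 and 414 CPM). Both libraries of the mature group lay above both libraries of the DP group for each gene. With 1 to 3 UMIs in the reference the size is given as a ratio of pooled levels, which was 416 for BF1 (exact 95% counting interval 73.8 to 16506) and 217 for BF2 (73.5 to 1057).

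Since reads of this near-identical pair can be assigned to the wrong copy or lost as ambiguous, their sum is the firmer measure. Summed BF1 and BF2 stood at 2.68 and 1.66 CPM in DP-like nuclei and at 408 and 653 CPM in mature T-like nuclei, a pooled ratio of 266 (103 to 982). On the log2 scale the difference was 7.69 ± 0.43 (SE), with an adjusted p of 3.64e-09 (edgeR quasi-likelihood, Benjamini-Hochberg over the 6861 genes tested, as for all adjusted p-values in T-lineage groups). For log2 differences, SE is here and below the difference divided by the square root of the F of its test. It was not estimated separately and does not show the full width of the counting interval where the reference holds few UMIs. In number of nuclei, 1 and 2 DP-like nuclei had a BF1 or BF2 UMI, against 96 and 190 mature T-like nuclei. The DP-like group held 27.9% and 34.5% of all nuclei and 0.310% and 0.150% of all BF1 and BF2 UMIs.

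**Figure D1:**
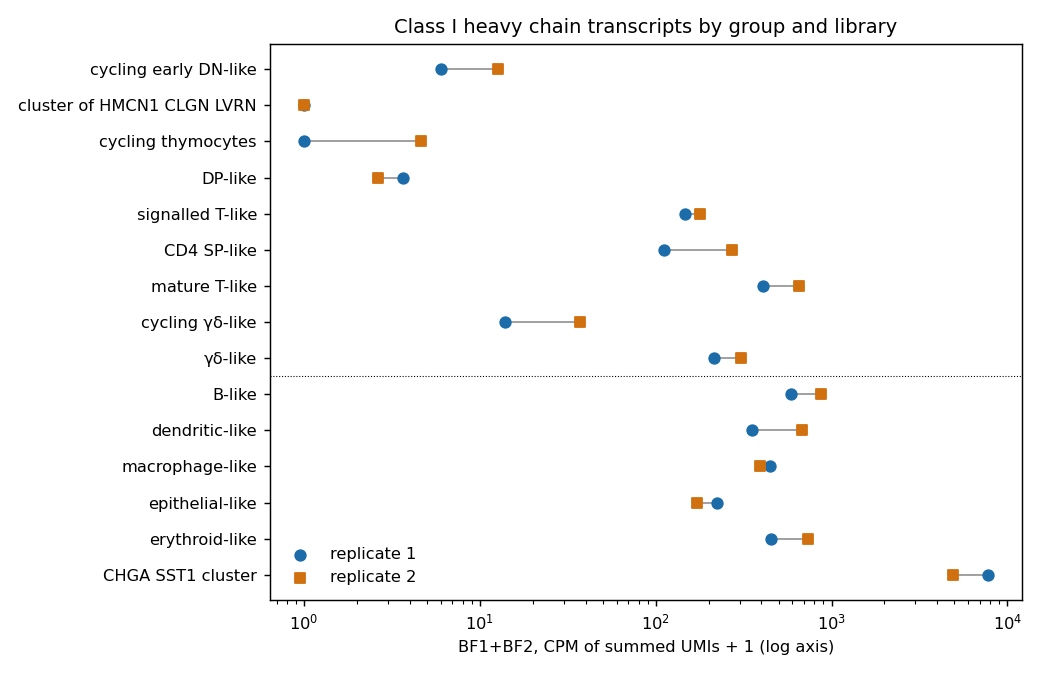
Summed BF1 and BF2 level per cell group in each library, as CPM + 1 on a logarithmic axis, with a point per library and a line between them; a group with no UMI stands at 1. DP-like nuclei lie at 2.68 and 1.66 CPM and mature T-like nuclei at 408 and 653 CPM, with the signalled, CD4 single-positive-like and γδ-like groups between them.

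Signalled T-like, CD4 single-positive-like and γδ-like nuclei had heavy-chain levels between those of DP-like and mature T-like nuclei. Whether these groups are steps of a path was not tested. Signalled T-like nuclei held summed BF1 and BF2 at 147 and 179 CPM, and the log2 difference from DP-like nuclei was 6.06 ± 0.47 (adjusted p = 1.93e-07). Within that group the small cluster led by NR4A3 and TNFRSF18 was at 292 and 384 CPM and the larger one at 123 and 143 CPM, so the libraries of the 2 clusters did not overlap. CD4 single-positive-like nuclei were at 110 and 270 CPM, a range that takes in the signalled group. Their log2 difference from DP-like nuclei was 6.28 ± 0.48 (adjusted p = 1.09e-07). The γδ-like nuclei stood at 214 and 307 CPM with a log2 difference of 6.72 ± 0.46 (adjusted p = 5.03e-08). Mature T-like nuclei lay above these 3 groups in both libraries.

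Dividing and earlier thymocytes were low. Cycling γδ-like nuclei held the sum at 12.9 and 36.4 CPM (3 and 9 UMIs), 3.34 ± 0.72 above DP-like nuclei on the log2 scale (adjusted p = 0.00234). Cycling early double-negative-like nuclei had 5.01 and 11.7 CPM from 1 and 4 UMIs, which did not pass the test against DP-like nuclei (1.85 ± 0.89, adjusted p = 0.128). All 5 were BF1 UMIs, and BF1 alone was called higher there, with a pooled ratio of 18.1 (2.02 to 856; adjusted p = 0.0183), while BF2 had none. Cycling thymocytes had 0 and 3.67 CPM. The cluster led by HMCN1, CLGN and LVRN, with 433 and 479 nuclei, had 0 UMIs of BF1 and BF2 in both libraries, which allows up to 9.75 and 6.96 CPM and so cannot be set apart from the DP-like level. All these floors and intervals cover counting error only.

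Over the 14 groups with at least 20 nuclei per library, summed BF1 and BF2 fell in the order B-like, erythroid-like, mature T-like, dendritic-like, macrophage-like, γδ-like, epithelial-like, CD4 single-positive-like, signalled T-like, cycling γδ-like, cycling early double-negative-like, DP-like, cycling thymocytes and the HMCN1 cluster. The means ran from 728 ± 197 CPM (SD, n = 2) in B-like nuclei to 0. Of the 13 neighbouring pairs in this order, 9 had overlapping libraries. The 4 breaks lay between macrophage-like and γδ-like nuclei, between signalled T-like and cycling γδ-like nuclei, and on both sides of cycling early double-negative-like nuclei.

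The light chain B2M had the same order of mean levels as the heavy chains over the groups listed next, but not all of them passed the test. It stood at 5.36 and 20.7 CPM in DP-like nuclei, 44.8 and 39.9 CPM in signalled T-like, 27.6 and 89.9 CPM in CD4 single-positive-like, 131 and 136 CPM in γδ-like and 214 and 333 CPM in mature T-like nuclei. The mature and γδ-like groups passed the test, with log2 differences of 4.07 ± 0.66 (adjusted p = 0.000202) and 3.10 ± 0.70 (adjusted p = 0.00442). In the signalled and CD4 single-positive-like groups both libraries lay above DP-like nuclei but the tests missed the threshold (1.44 ± 0.72, adjusted p = 0.175, and 1.99 ± 0.76, adjusted p = 0.0696). In cycling early double-negative-like nuclei the libraries differed widely, with 95.2 CPM in replicate 1 and 8.81 CPM in replicate 2.

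The peptide transporter genes TAP1 and TAP2, which lie between BF1 and BF2, were higher than in DP-like nuclei in the signalled, CD4 single-positive-like, mature T-like and γδ-like groups, and in some dividing groups. TAP1 was at 1.34 and 4.97 CPM in DP-like nuclei, 48.9 and 62.5 CPM in signalled T-like, 60.6 and 53.3 CPM in CD4 single-positive-like, 43.8 and 109 CPM in γδ-like and 76.2 and 121 CPM in mature T-like nuclei. TAP1 rose by 4.69 ± 0.73 on the log2 scale in mature T-like nuclei (adjusted p = 0.000156), and by 3.94 to 4.29 in the other 3 groups (adjusted p between 0.000709 and 0.00157). TAP2 already had 12 and 52 UMIs in DP-like nuclei (16.1 and 43.1 CPM). It reached 201 and 281 CPM in mature T-like nuclei, a log2 difference of 2.78 ± 0.34 (adjusted p = 1.16e-05), with differences of 1.98 to 2.36 in the signalled, CD4 single-positive-like and γδ-like groups.

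In cycling thymocytes, whose heavy-chain sum did not differ from DP-like nuclei by the test (adjusted p = 0.944), TAP2 was at 68.9 and 96.6 CPM, 1.33 ± 0.35 higher on the log2 scale (adjusted p = 0.0096). TAP1 in the same nuclei was at 4.22 and 42.8 CPM, and passed the test (2.52 ± 0.76, adjusted p = 0.023) although its replicate 1 lay inside the DP-like range. TAP1 also rose in cycling γδ-like (3.27 ± 0.82, adjusted p = 0.0065) and cycling early double-negative-like nuclei (2.66 ± 0.85, adjusted p = 0.0244).

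NLRC5, the class I transactivator of mammals, was detected at every stage. It had 5 and 43 UMIs in DP-like nuclei (6.70 and 35.6 CPM), 65.2 and 64.3 CPM in signalled T-like, 77.2 and 79.9 CPM in CD4 single-positive-like, 107 and 61.4 CPM in γδ-like and 113 and 116 CPM in mature T-like nuclei. The log2 difference from DP-like nuclei was 2.19 ± 0.49 in mature T-like (adjusted p = 0.00299), 1.70 ± 0.53 in CD4 single-positive-like (0.0261 adjusted) and 1.78 ± 0.53 in γδ-like nuclei (0.0225 adjusted). It missed in signalled T-like nuclei at 1.41 ± 0.50 (adjusted p = 0.0526), although the libraries of the groups did not overlap there. The DP-like reference rests largely on replicate 2: the mature difference was 1.70 without replicate 1 and 3.95 without replicate 2.

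Of the transcription factors, IRF1 was at 0 and 4.14 CPM in DP-like nuclei (0 and 5 UMIs) and at 145 and 195 CPM in mature T-like nuclei, a log2 difference of 5.73 ± 0.64 (adjusted p = 4.36e-06). Signalled T-like nuclei held 97.8 and 52.1 CPM, CD4 single-positive-like nuclei 110 and 103 CPM and γδ-like nuclei 87.6 and 78.4 CPM. The log2 differences from DP-like nuclei were 4.56 to 5.12. In cycling γδ-like nuclei IRF1 was at 51.6 and 32.3 CPM, 3.76 ± 0.76 above DP-like nuclei (adjusted p = 0.00122).

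IRF7 had no UMI in DP-like nuclei of replicate 1 and 16 UMIs in those of replicate 2 (13.2 CPM). It stood at 56.5 and 84.8 CPM in mature T-like nuclei, where the log2 difference was 3.11 ± 0.80 (adjusted p = 0.00801). That difference was 2.65 without replicate 1 and 6.43 without replicate 2, with IRF1 at 5.43 and 7.77 in turn. Signalled T-like nuclei (61.1 and 52.1 CPM) and CD4 single-positive-like nuclei (49.6 and 66.6 CPM) were higher too, with adjusted p of 0.0157 and 0.0186, and γδ-like nuclei (34.1 and 44.3 CPM) missed at 0.0707.

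The interferon-stimulated genes EPSTI1 and OASL were near 0 in DP-like nuclei. EPSTI1 had 1 and 0 UMIs there, and stood at 69.2 and 52.1 CPM in signalled T-like, 53.5 and 40.9 CPM in γδ-like, 199 and 222 CPM in mature T-like and 220 and 166 CPM in CD4 single-positive-like nuclei. The last of these overlapped the mature group, while γδ-like and signalled T-like nuclei lay below both, an order unlike that of the heavy chains. The pooled ratio of mature T-like to DP-like nuclei was 414 (73.4 to 16423; adjusted p = 7.95e-07). It was 365 in CD4 single-positive-like nuclei (63.9 to 14577; adjusted p = 1.44e-06), 117 in signalled T-like nuclei (adjusted p = 4.75e-05) and 90.1 in γδ-like nuclei (adjusted p = 0.00026).

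OASL had no UMI in DP-like nuclei of either library, so that its fold is a lower bound against a floor of 3 counts over the group. OASL was at 39.3 and 82.9 CPM in mature T-like nuclei, at least 41.5-fold higher than in DP-like nuclei (adjusted p = 0.000418). It was at least 37.9-fold higher in CD4 single-positive-like (49.6 and 63.3 CPM), 26.1-fold in γδ-like (34.1 and 44.3 CPM), 24.4-fold in cycling γδ-like (30.1 and 44.5 CPM) and 22.6-fold in signalled T-like nuclei (26.5 and 41.7 CPM). Adjusted p-values of these 4 contrasts lay between 0.000591 and 0.00168. Cycling early double-negative-like nuclei and the DP-like group were alike in holding no OASL UMI in either library.

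**Figure D2:**
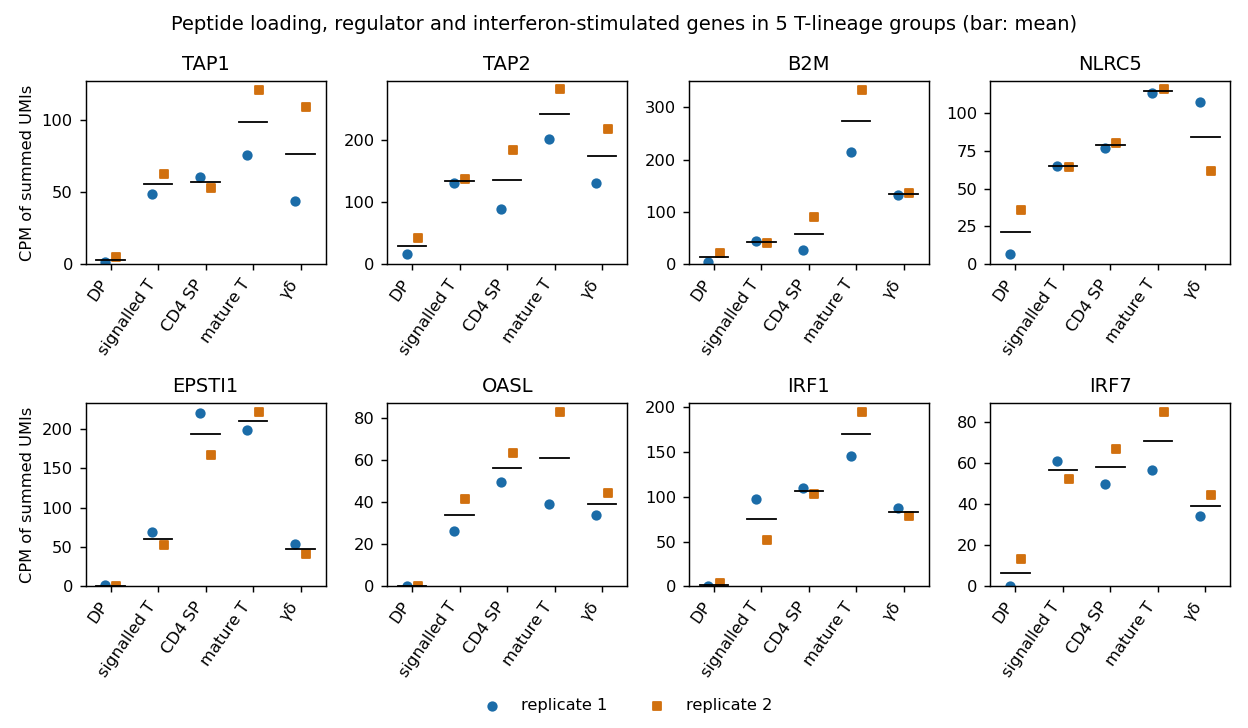
Level (CPM, linear axis from 0, each panel with its own range) of the 8 genes other than BF1 and BF2 in 5 T-lineage groups, with a point per library and a bar at their mean. EPSTI1 is highest in CD4 single-positive-like and mature T-like nuclei, which overlap, while B2M is highest in mature T-like nuclei at 214 and 333 CPM.

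Read against the background of all genes tested, the 10 genes were called higher more often than those genes in 4 groups. That background, here and below, leaves out the 2000 clustering genes, which were chosen as the most variable. The 10 genes were kept out of that choice by rule, so the comparison may favour them. In mature T-like nuclei 10 of 10 were called higher, where 16.7% of all 6861 genes were. In CD4 single-positive-like nuclei 9 of 10 were (background 13.9%), in γδ-like nuclei 9 of 10 (12.7%) and in signalled T-like nuclei 8 of 10 (13.1%). Both libraries of all 10 genes lay above both DP-like libraries in each of these 4 groups, where 38.7%, 31.8%, 34.7% and 34.6% of all genes did. In cycling γδ-like nuclei 6 of 10 were called higher (19.2%), and 8 of 10 had libraries that did not overlap (38.1%). The calls were 3 of 10 in cycling early double-negative-like nuclei (20.2%, with 4 of 10 not overlapping, 37.4%) and 2 of 10 in cycling thymocytes (17.1%, with 2 of 10 not overlapping, 35.7%), near the background. In the HMCN1 cluster edgeR called 0 of the 10 higher, against 9.18% of all genes, with 0 at an unadjusted p under 0.05 and 0 by DESeq2, and 0 had libraries above the DP-like ones (29.2%).

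As to lower levels, edgeR called 0 of the 10 genes lower in each of these 8 contrasts, with 0 at an unadjusted p under 0.05 and 0 by DESeq2. Both libraries lay below both DP-like libraries for 2 of the 10 in the HMCN1 cluster. The same held for 1 in cycling early double-negative-like nuclei and for 1 in cycling thymocytes. The share of all genes with both libraries below was not computed, so these counts have no background to be read against. The shares that follow are those of edgeR calls, a different measure. The share of all genes called lower was 10.6% in mature T-like, 9.81% in CD4 single-positive-like, 8.5% in signalled T-like, 7.9% in γδ-like, 10.5% in cycling γδ-like, 13.5% in cycling early double-negative-like nuclei, 8.61% in cycling thymocytes and 6.24% in the HMCN1 cluster.

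The median log2 difference over the 10 genes was 5.21 in mature T-like, 4.54 in CD4 single-positive-like, 4.51 in γδ-like and 4.25 in signalled T-like nuclei, and over all tested genes 0.10, 0.00, 0.09 and 0.05. All 10 passed the filter on low counts, but BF1, BF2, EPSTI1 and OASL, with 0 to 3 UMIs in DP-like nuclei, could pass it only through groups where they were high. TAP1, IRF1, IRF7 and B2M, with 7, 5, 16 and 29 UMIs in DP-like nuclei, were also low there, so the filter may shape their calls too. The 10 genes were also picked with results of these data known, so the counts describe them and are not independent evidence.

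Depth and markers moved with these groups. The median nucleus held 492 and 610 UMIs in the DP-like group, 571 and 697 in signalled T-like, 629 and 781 in γδ-like, 849 and 1167 in mature T-like, 1026 and 1316 in CD4 single-positive-like and 1127 and 1516 in cycling early double-negative-like nuclei. Markers of other cells were low in mature T-like nuclei: the 6 B-cell markers summed to 76.2 and 77.1 CPM with 5 and 6 of them detected, the 11 macrophage markers to 19.7 and 11.6 CPM with 4 detected, and the 10 epithelial markers to 0 and 3.86 CPM. The 7 dendritic markers summed to 187 and 183 CPM in mature T-like nuclei, with 3 and 4 of them detected. In DP-like nuclei they summed to 343 and 357 CPM, with 1 detected in each library. In B-like nuclei the B-cell list stood at 7837 and 9253 CPM. The part of depth and of other cells' RNA in the member levels was not tested further. A gate on single nuclei in place of clusters gave summed BF1 and BF2 at 6.82 and 3.77 CPM in nuclei gated as DP-like (1503 and 1913). In nuclei with mature markers (1004 and 1083) the sum was at 201 and 349 CPM. Both gated sets were drawn from all T-lineage groups, so they are not the same nuclei as the clusters of like name.

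Apart from the members B2M, TAP1 and TAP2, which rose in mature T-like nuclei, the listed partner genes of the class I pathway did not rise as a group. Of 12 class I partner genes tested, 2 were higher and 1 lower in mature T-like nuclei, where 16.7% and 10.6% of all genes were. Their median log2 difference was -0.19 beside 0.10 for all genes. The peptide-loading chaperone TAPBP (tapasin) rose from 4.55 ± 6.44 CPM (SD, n = 2) in DP-like to 90.3 ± 30.4 CPM in mature T-like nuclei (4.10 ± 0.68 on the log2 scale, adjusted p = 0.000224). TAPBP was also higher in CD4 single-positive-like (2.99 ± 0.74, adjusted p = 0.00665), signalled T-like (3.40 ± 0.68, adjusted p = 0.00164) and γδ-like nuclei. SEC61A1, a channel subunit for entry into the endoplasmic reticulum, rose in mature T-like nuclei (2.12 ± 0.59, adjusted p = 0.0135), and the chaperone CALR fell by 0.76 ± 0.22 (adjusted p = 0.017). In CD4 single-positive-like nuclei 1 partner was higher and 3 were lower (CALR, CANX and the proteasome activator PSME4), where 13.9% and 9.81% of all genes were.

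The factors that act with NLRC5 at class I promoters in mammals showed no common direction. Of 8 tested, 1 rose and 2 fell in mature T-like nuclei, where 16.7% and 10.6% of all genes did. NFYA rose by 1.46 ± 0.44 (adjusted p = 0.0209), while the coactivators CREBBP and EP300 fell by 0.90 ± 0.13 (adjusted p = 6.5e-05) and by 0.59 ± 0.14 (adjusted p = 0.00375). CREBBP was at 564 ± 26.0 CPM in mature T-like and 900 ± 18.2 CPM in DP-like nuclei. The same 3 genes moved this way in signalled T-like nuclei.

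Interferon-stimulated genes beyond the members moved in different directions in different groups. Of 17 tested, 7 were higher in mature T-like, 6 in CD4 single-positive-like, 5 in signalled T-like and 4 in γδ-like nuclei, with medians of 1.69, 1.20, 0.78 and 0.91. DESeq2 called 6, 6, 5 and 5 higher and 0 lower, and at an unadjusted p under 0.05 edgeR had 0, 0, 1 and 2 lower. In dividing and HMCN1-cluster nuclei the same list also held lower calls, with 6 higher and 1 lower in cycling γδ-like nuclei, 2 and 4 in cycling early double-negative-like nuclei and 1 and 2 in the HMCN1 cluster. In cycling thymocytes 0 passed by edgeR or DESeq2, with 5 at an unadjusted p under 0.05. The RNA-binding antiviral gene ZC3HAV1 and the RNA sensor gene IFIH1 were lower both in cycling early double-negative-like nuclei (by 1.57 ± 0.29, adjusted p = 0.000572, and by 1.64 ± 0.50, adjusted p = 0.0175, on the log2 scale) and in the HMCN1 cluster. The shares of all genes called in each contrast are those given above. RNF213, a large ubiquitin ligase, was at 158 ± 21.9 CPM in mature T-like and 2.68 ± 3.79 CPM in DP-like nuclei (5.83 ± 0.69, adjusted p = 1.14e-05). HELZ2, a helicase gene, was at 90.9 ± 27.8 and 3.76 ± 4.15 CPM (4.51 ± 0.69, adjusted p = 0.000109). The antiviral genes MX1 and SAMHD1 had 1 UMI each in DP-like nuclei and stood at 122 ± 14.8 and 94.1 ± 11.4 CPM in mature T-like nuclei.

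Of interferon receptor and signalling genes, 4 of 13 tested were higher in each of the signalled, CD4 single-positive-like, mature T-like and γδ-like groups, and 1 was lower, in signalled T-like nuclei. The shares of all genes called higher in these groups were 13.1%, 13.9%, 16.7% and 12.7% in turn, and 8.5% were lower in signalled T-like nuclei. In cycling early double-negative-like nuclei 1 was higher and 4 were lower, where 20.2% and 13.5% of all genes were. USP18, a brake on interferon receptor signalling, rose in mature T-like nuclei by 3.95 ± 0.99 (adjusted p = 0.00656). Among 3 other interferon regulatory factors tested, IRF4 rose (3.96 ± 0.85, adjusted p = 0.00256) and IRF2 fell by 1.28 ± 0.15 (adjusted p = 7.75e-06) in mature T-like nuclei. The ligand genes themselves were all but absent: of the 3 in the matrices, IFNG and IFNL3A had 0 UMIs and IFNW1 had 1 UMI over all 10100 nuclei, where a count of 0 allows up to 0.324 CPM.

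Among nucleic acid sensor genes, 2 of 8 tested were higher in mature T-like nuclei, beside 16.7% of all genes tested. These were TRAF3 (by 1.54 ± 0.30, adjusted p = 0.00108) and TBK1 (by 0.85 ± 0.27, adjusted p = 0.0277). In γδ-like nuclei 0 were higher by edgeR or DESeq2 (1 at an unadjusted p under 0.05), beside 12.7% of all genes by edgeR, and the median was -0.05. Of class II pathway genes, 1 passed the filter in the T-lineage fit. That gene, the protease CTSS, had 1 UMI in DP-like nuclei and 45.7 CPM in mature T-like nuclei (adjusted p = 0.000787).

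**Figure D3:**
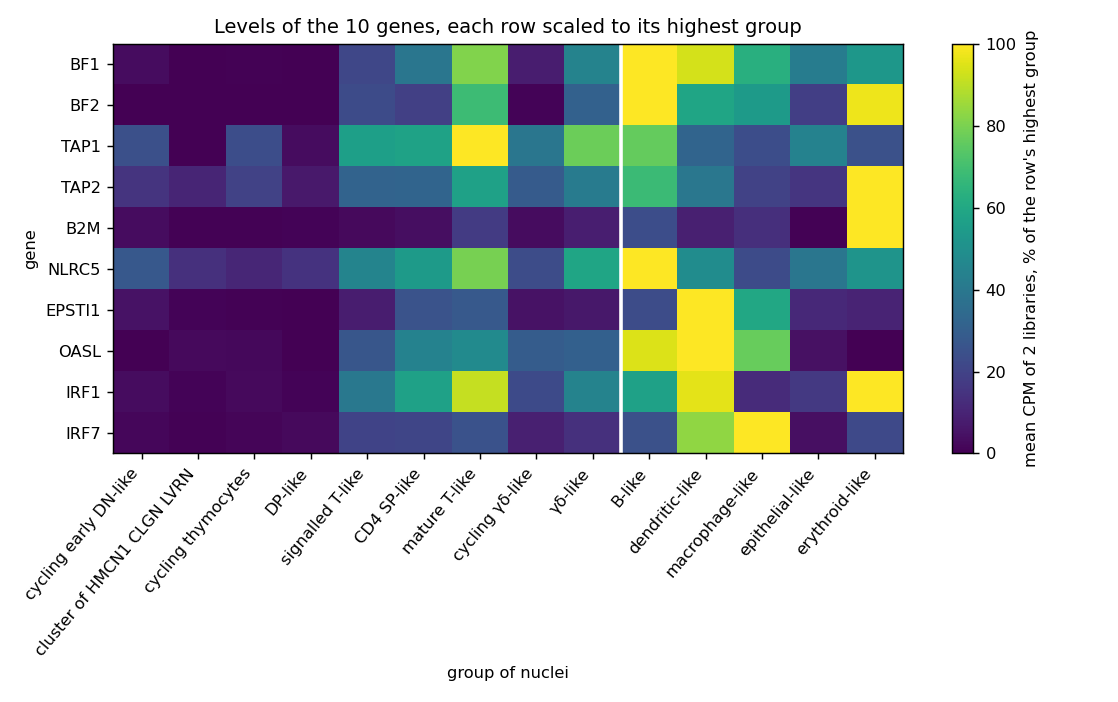
Mean CPM of the 2 libraries for the 10 genes (rows) in 14 groups (columns, T lineage left of the white line), coloured as a percent of the row's highest group, so that colours compare groups within a gene and not genes with each other. DP-like nuclei, cycling thymocytes and the HMCN1 cluster are at the dark, low end for BF1, BF2, EPSTI1 and OASL, and the highest group is B-like for BF1 and BF2, mature T-like for TAP1 and erythroid-like for B2M.

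Outside the T lineage, the heavy chains were above the T-lineage average in all 5 classes tested, and EPSTI1 and IRF7 were highest in the dendritic-like and macrophage-like classes. That average takes in the low DP-like nuclei, while mature T-like nuclei alone held summed BF1 and BF2 at 408 and 653 CPM. T-lineage nuclei as 1 class held summed BF1 and BF2 at 88.2 and 134 CPM. Each class was tested against them over 2508 genes, 7 of them members, as TAP1, NLRC5 and OASL did not pass the filter. In the T lineage these 7 lay below the level that the filter asks for. Each could pass it only through non-T classes where it was high. The counts of members called in these classes thus describe them and are not independent evidence, also where a share of all genes stands beside them. Counts of members whose libraries did not overlap take in all 10, while the share of genes beside each count covers the 2508 genes only. All genes tested had edgeR medians of -0.18 to -0.45 in these contrasts on the log2 scale, and under DESeq2's scaling -0.01 to 0.06, so that differences smaller than this shift carry no direction.

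B-like nuclei (59 and 54, with the B-cell factor PAX5 at 2230 and 3588 CPM) held summed BF1 and BF2 at 589 and 867 CPM, 2.45 ± 0.37 above the T lineage (adjusted p = 6.2e-05). BF2 was at 372 and 568 CPM and BF1 at 217 and 299 CPM. B2M stood at 310 and 433 CPM, against 52.4 and 68.9 CPM in the T lineage (2.32 ± 0.56, adjusted p = 0.00691), a call lost with the 400-gene minimum (adjusted p = 0.0924) and with separate UMIs for clustering and testing (adjusted p = 0.126). B-like nuclei thus had 3 of 7 members higher, where 6.02% of all genes were, and 0 lower (5.06%; also 0 at an unadjusted p under 0.05 and by DESeq2). All 10 members, the untested TAP1, NLRC5 and OASL included, had both libraries above the T lineage, where 32% of the tested genes did. The call split of all genes was 151 higher and 127 lower by edgeR, and 237 and 81 by DESeq2. TAP2 (201 and 374 CPM, adjusted p = 0.162) and EPSTI1 (92.9 and 254 CPM, adjusted p = 0.0885) missed the threshold.

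Dendritic-like nuclei (37 and 33, with the receptor gene FLT3 at 788 and 808 CPM) had 4 of 7 members higher, where 9.13% of genes were, and 0 lower (7.06%; also 0 unadjusted and by DESeq2). Over all genes the split was 229 higher and 177 lower by edgeR and 356 and 111 by DESeq2. Libraries of 7 of the 10 members lay above those of the T lineage, where 30.3% of genes did. EPSTI1 reached 570 and 935 CPM there, from 21 and 44 UMIs, of which 14 came from 1 nucleus of replicate 2. It was 3.54 ± 0.47 above the T lineage (adjusted p = 1e-05). IRF7, known in mammals for the interferon output of plasmacytoid dendritic cells, was at 190 and 276 CPM (2.90 ± 0.79, adjusted p = 0.0132). Summed BF1 and BF2 were at 353 and 680 CPM (1.95 ± 0.41, adjusted p = 0.00147). B2M and OASL differed between the libraries, with no UMI in replicate 1 and 276 and 255 CPM in replicate 2.

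Macrophage-like nuclei (36 and 41, with the scavenger receptor gene MARCO at 1094 and 612 CPM) had 3 of 7 members higher, where 13.6% of genes were, and 0 lower (12.6%; also 0 unadjusted and by DESeq2). The split of all calls was 342 higher and 317 lower by edgeR and 464 and 204 by DESeq2. For 5 of the 10 members both libraries were above the T lineage (30.1% of genes). For 2 both were below (share of genes not computed). IRF7 was at 280 and 278 CPM, 3.26 ± 0.78 above the T lineage (adjusted p = 0.00321). EPSTI1 was at 421 and 482 CPM (2.91 ± 0.48, adjusted p = 7.98e-05). Summed BF1 and BF2 stood at 449 and 389 CPM (1.73 ± 0.42, adjusted p = 0.00381), a call that was lost without the filter on low counts (1.42, adjusted p = 0.0896) and with separate UMIs for clustering and testing (1.50, adjusted p = 0.0658). IRF1 had 1 UMI in each library (28.0 and 18.5 CPM), under the floor of 3 counts, and did not pass the test.

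Epithelial-like nuclei (84 and 90, with the thymic epithelial factor FOXN1 at 2226 and 1510 CPM) were the class in which a member was called lower. Summed BF1 and BF2 stood at 223 and 170 CPM, 1.21 ± 0.36 above the T lineage (adjusted p = 0.00609). B2M had 3 and 2 UMIs (15.2 and 5.97 CPM), the UMIs of each library lying in 1 nucleus, and was 2.36 ± 0.84 below the T lineage on the log2 scale (adjusted p = 0.0205). Of 7 members 2 were called higher (BF1 and EPSTI1), where 27.4% of genes were, and 1 lower, where 30.6% were, near the background. Libraries of 4 of the 10 members lay wholly above the T lineage (33.1% of genes) and those of 5 wholly below (share of genes not computed). These calls were not firm: the sum's difference was 0.36 without replicate 1 and 1.35 without replicate 2, and the B2M call was lost in 5 of 7 alternative settings.

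Erythroid-like nuclei (25 and 36, with the globin gene HBBA at 3983 and 1694 CPM) held B2M at 1804 and 1350 CPM, from 24 and 55 UMIs in 8 and 18 nuclei. This was 4.28 ± 0.57 above the T lineage (adjusted p = 0.000198), the highest B2M level of the tested groups with no overlap with the next, B-like nuclei. Summed BF1 and BF2 stood at 451 and 736 CPM (6 and 30 UMIs; 2.16 ± 0.44, adjusted p = 0.010), a call lost without the filter on low counts (1.66, adjusted p = 0.151). Of 7 members 2 were higher, where 1.32% of genes were, and 0 lower (0.439%; also 0 unadjusted and by DESeq2). All genes split into 33 higher and 11 lower by edgeR and 91 and 10 by DESeq2. Libraries of 7 of the 10 members did not overlap and were higher (19.6% of genes). Those of 1 did not overlap and were lower (share of genes not computed). The group also held thymocyte RNA, with the 8 DP markers at a summed 8041 and 6701 CPM, against 21976 and 23332 CPM in DP-like nuclei. The 13 T-lineage markers summed to 7440 and 8665 CPM, against 11287 and 12093 CPM in DP-like nuclei. The 6 erythroid markers summed to 11799 and 3903 CPM, so that in replicate 2 they lay below both thymocyte lists. B2M in DP-like nuclei was at 5.36 and 20.7 CPM. The part of carried RNA or of mixed nuclei in the erythroid-like levels was not tested.

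**Figure D4:**
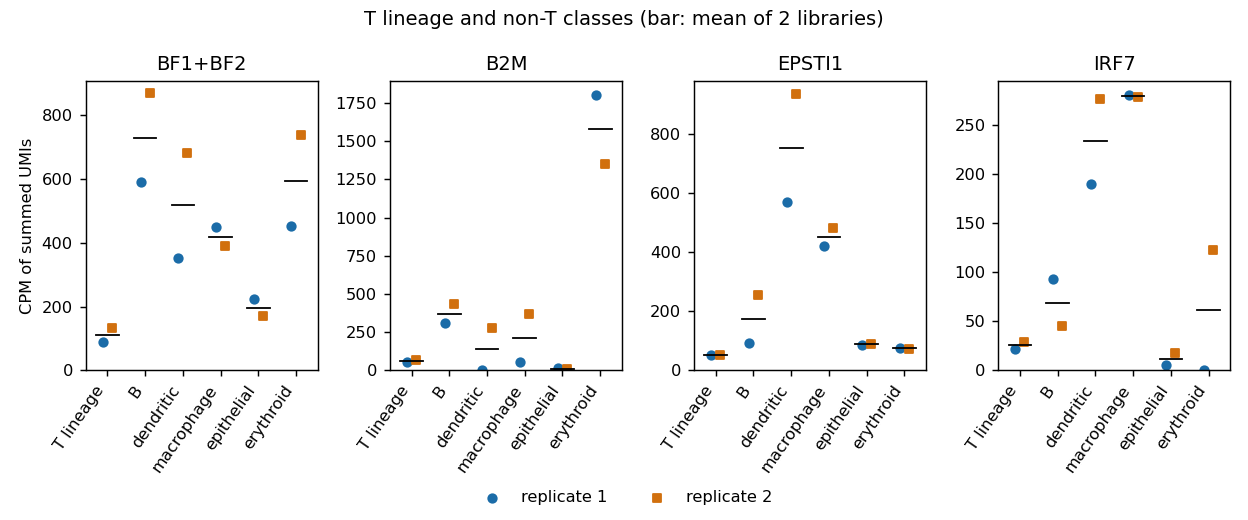
Level (CPM, linear axis from 0, each panel with its own range) of summed BF1 and BF2, B2M, EPSTI1 and IRF7 in the T lineage and 5 non-T classes, with a point per library and a bar at their mean. EPSTI1 and IRF7 stand highest in dendritic-like and macrophage-like nuclei, and B2M in erythroid-like nuclei.

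Class II genes, which load peptides for CD4 T cells, were higher in the antigen-presenting classes. All 4 tested (CD74, BLB1, BLB2 and DMB2) were higher in B-like, dendritic-like, macrophage-like and epithelial-like nuclei, where 6.02%, 9.13%, 13.6% and 27.4% of genes were. CD74 was at 1230.5 ± 141 CPM in B-like nuclei and 4.23 ± 0.909 CPM in the T lineage (7.88 ± 0.45, adjusted p = 9.63e-11). At that T-lineage level CD74 could pass the filter on low counts only through classes where it was high. IRF8 was higher in these 4 classes, and RNF213 too, by 1.49 ± 0.47 in epithelial-like to 3.43 ± 0.50 in macrophage-like nuclei. IRF8 was held out of the clustering but is on the dendritic marker list, so its level in dendritic-like nuclei is partly set by the naming. Of 7 class I partners tested, 0 passed in B-like, dendritic-like or macrophage-like nuclei by edgeR or by DESeq2, with 1 lower at an unadjusted p under 0.05, in dendritic-like nuclei. In epithelial-like nuclei 4 were lower, HSPA5, CALR, PDIA3 and CANX, all chaperones of the endoplasmic reticulum, where 30.6% of all genes were lower.

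A small cluster of 14 and 23 nuclei, led by CHGA and SST1, genes of neuroendocrine cells, held the most class I RNA of all groups. Its summed BF1 and BF2 level was 7779 and 4909 CPM (220 and 503 UMIs), and B2M stood at 2793 and 2372 CPM. It made up 0.288% and 0.439% of nuclei and held 34.1% (exact Clopper-Pearson 95% interval 30.5 to 37.9) and 37.6% (35.0 to 40.3) of all BF1 and BF2 UMIs, beside 25.7% and 25.4% in mature T-like nuclei. With 14 nuclei in replicate 1 it was not tested, and it is left unnamed. Of its 37 nuclei 9 had a CHGA UMI and 2 an SST1 UMI, while 27 had a BF1 or BF2 UMI and 19 a B2M UMI. It held markers of several cell types: the 10 epithelial markers summed to 2687 and 2303 CPM with 8 and 10 of them detected, the 7 dendritic markers to 1662 and 1630 CPM with 3 and 4, the 6 B-cell markers to 601 and 1025 CPM with 2 and 3, and the 11 macrophage markers to 35.4 and 107 CPM. Their part in its class I level was not tested.

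Its heavy-chain level rested on few nuclei. In replicate 1 a single nucleus held 171 of the 220 UMIs (77.7%), and in replicate 2 another held 207 of 503 (41.2%). Without these 2 nuclei the level was 1908 CPM from 49 UMIs and 3830 CPM from 296 UMIs, still above each other group. Of the 10 nuclei with the most BF1 and BF2 UMIs in the data, 9 belonged to it. TAP2 was at 106 and 439 CPM and TAP1 at 70.7 and 166 CPM in the cluster, while OASL, IRF1 and IRF7 had no UMI in replicate 1 and 166, 117 and 166 CPM in replicate 2.

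Over all nuclei the UMIs divided nearly evenly between BF1 and BF2, but the share differed between groups in value and the total rested in part on the unnamed cluster. BF2 took 52.6% (48.6 to 56.5) of 645 UMIs in replicate 1 and 55.8% (53.1 to 58.4) of 1336 in replicate 2. In mature T-like nuclei the share was 56.0% (48.1 to 63.7) and 63.4% (58.0 to 68.6), in signalled T-like 62.5% (50.3 to 73.6) and 68.9% (59.1 to 77.7), in erythroid-like 66.7% (22.3 to 95.7) and 83.3% (65.3 to 94.4), in γδ-like 59.1% and 53.3%, in CD4 single-positive-like 35.0% (15.4 to 59.2) and 51.9% and in B-like nuclei 63.2% and 65.5%. The unnamed cluster had 46.8% (40.1 to 53.6) and 48.3% (43.9 to 52.8), and without it the share over all nuclei was 55.5% and 60.3%. Counts of BF1 and BF2 were not tested against each other, and how reads common to both were counted is not given in the sources used here.

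**Figure D5:**
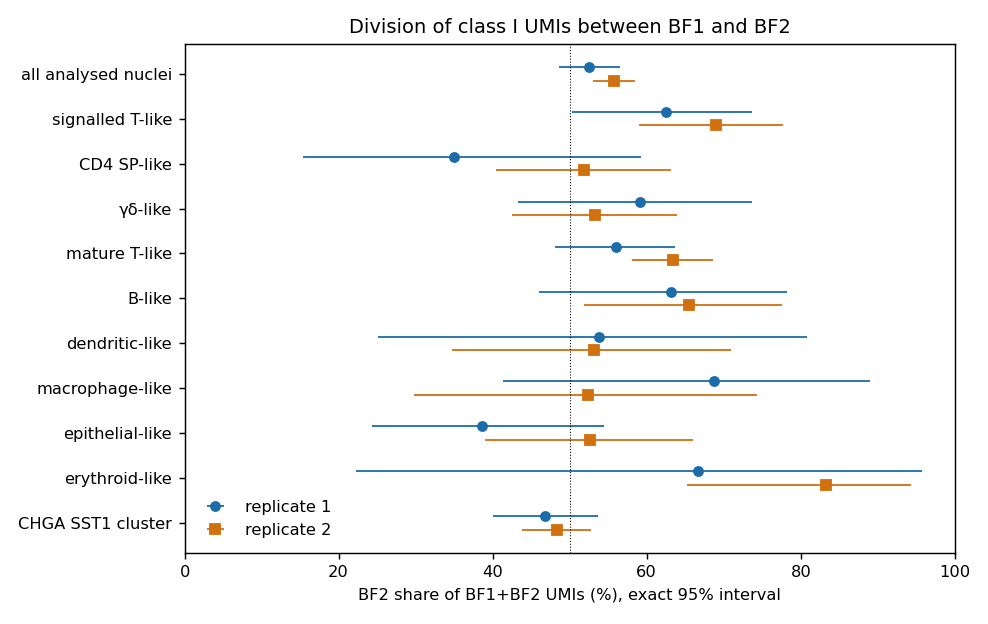
Share of BF2 in the summed BF1 and BF2 UMIs (percent) per group and library, with exact Clopper-Pearson 95% intervals as bars. Mature T-like nuclei lie at 56.0% and 63.4% and the unnamed CHGA and SST1 cluster at 46.8% and 48.3%.

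Across the 16 groups and 2 libraries (32 points) the genes whose log2(CPM + 10) ran most like the heavy-chain sum were TAPBP (Pearson r = 0.864), SETBP1 (0.840), BIRC2 (0.824), RNF213 (0.814) and C2H6ORF62 (0.807), out of 5717 genes with at least 200 UMIs. SETBP1 was among the genes used for clustering. Groups of 1 library share its depth and free RNA, so the values are a description. Of the members, EPSTI1 had 0.796, NLRC5 0.785, B2M 0.727, TAP2 0.700, IRF7 0.559, IRF1 0.556, TAP1 0.488 and OASL 0.392, so TAP1, next to BF1 on the chromosome, was lower in this order than 6 of the other members, though at rank 236 of the 5717 genes. Without the unnamed cluster (30 points) the list was led by RNF213 (0.932), with TMEM131L, BIRC2, C2H6ORF62 and WDR1 next, and TAPBP was at 0.818, EPSTI1 at 0.844 and TAP1 at 0.407.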

How the data were processed

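Single nuclei of 2 thymus libraries were sequenced by the 10x 3′ method, and per the labels' protocols the annotation was limited to protein-coding and lncRNA genes. The authors deposited UMI counts per gene and barcode (unit: counts) under names that point to CellBender, a tool that removes background RNA, with settings not given in the sources used here. The submitters' processing notes name Cell Ranger 7.0.1, Scanpy 1.9.1 and GRCg7b.

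From the 6564 and 6050 barcodes (4826743 and 6570941 UMIs), 1393 and 476 with fewer than 200 genes, 0 and 1 over 5% mitochondrial UMIs and the 6% with the highest simulated-doublet score (310 and 334) were dropped. Counts were scaled to 10000 per nucleus and log-transformed, 2000 variable genes were scaled within each library, and 30 components were clustered (scanpy 1.11.5, Leiden resolution 1, 15 neighbours) into 20 clusters, 14 of them T lineage. The 10 genes and 8 pathway lists were held out, and clustering genes are not tested. Clusters were named from 26 marker lists. The members and lists were chosen with earlier results of these data known. All 10 members are named. Of each list, genes past an adjusted p of 0.05 were eligible, at most 4 per contrast, and for likeness the 5 highest r.

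UMIs were summed per library and group (at least 20 nuclei in each library) and tested by edgeR 4.0.16 (TMM, filterByExpr, glmQLFTest, two-sided, Benjamini-Hochberg), with the library as a block since groups of a library share a suspension. The T-lineage fit had 8 residual degrees of freedom and the class fit 5. On simulated counts, 92.5% of 4-fold changes were recovered for mature T-like against DP-like nuclei (6250 genes). For B-like nuclei against the T lineage 79.6% were recovered (1792 genes). False calls made up 5.13% and 2.63% of calls in turn. Only the more abundant genes were changed, with a fixed spread and no library effect. The recovery thus does not carry over to genes with few UMIs, as most members are in DP-like nuclei. Ratios have exact 95% counting intervals. UMIs of a nucleus are not independent samples, and intervals cover counting error only. Alternatives were DESeq2 1.42.0, no low-count filter, no replicate block, no doublet removal, a 400-gene minimum, resolution 2, separate UMIs for clustering and testing, a per-nucleus gate, and each library left out. No sequences are shown.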

Additional observations from a re-analysis of the deposited data

How the results depend on the processing

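Against DP-like nuclei, the log2 difference of summed BF1 and BF2 stayed past the threshold under each alternative that could be fitted. It ran from 5.62 to 7.91 in mature T-like, 5.98 to 6.46 in CD4 single-positive-like, 5.66 to 6.58 in signalled T-like and 5.11 to 6.94 in γδ-like nuclei. With 1 library left out, a value with no test, it ran from 6.93 to 8.30, 5.08 to 7.03, 5.46 to 6.44 and 6.01 to 7.22 in turn. Of the single-member values with 1 library left out, 68 moved and 82 stayed the same. The sign changed between the libraries for B2M in dendritic-like nuclei (-1.95 to 2.06) and for TAP2 in macrophage-like nuclei (-0.31 to 0.05). Under the alternatives that kept both libraries, 438 single-member values kept direction and call, 28 lost the call, 21 gained one and 0 reversed. Lost calls in the T lineage were IRF7 in mature T-like nuclei with separate UMIs (adjusted p = 0.0509) and in signalled and CD4 single-positive-like nuclei, and NLRC5 in mature T-like nuclei under the gate (0.0534), in γδ-like nuclei with separate UMIs (0.0873) and in CD4 single-positive-like nuclei with doublets kept (0.0528). The gate called 773 genes in its mature nuclei, a pool over all T-lineage groups (1875 reported for the mature T-like cluster). The 400-gene minimum called 849 in γδ-like (1416) and 171 in B-like nuclei (278).

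Class results moved more. DESeq2 called 5 members higher in B-like nuclei (3 reported) and 101 genes in erythroid-like nuclei (44), where no filter gave 85, no replicate block 29 and doublets kept 22. Without the filter, 1 member was called higher in dendritic-like (4 reported), 0 in epithelial-like (2, with the lower B2M call kept) and 1 in erythroid-like nuclei (2), and epithelial-like nuclei had 3447 genes called (1454). Members called higher in epithelial-like nuclei were also 0 with the 400-gene minimum and with separate UMIs. The summed BF1 and BF2 difference lost its call without the filter in macrophage-like (1.42), epithelial-like (1.05) and erythroid-like nuclei (1.66), and with separate UMIs in macrophage-like (1.50) and epithelial-like nuclei (0.98). With 1 library left out it ran from 2.71 to 2.75 in B-like, 2.05 to 2.37 in dendritic-like, 1.57 to 2.39 in macrophage-like, 0.36 to 1.35 in epithelial-like and 2.47 to 2.48 in erythroid-like nuclei. A mean over nuclei gave 2.98 CPM for the sum in DP-like nuclei (2.17 reported). Left out after seeing the data, the CHGA and SST1 cluster moved the BF2 share of replicate 2 to 60.3%, and its own mean fell from 6344 to 2869 CPM without the top nucleus of each library. The cause of these moves was not tested.

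The replicate block pairs the groups of a library by construction. Without the replicate block, 10, 8 and 7 members were called in mature T-like, CD4 single-positive-like and signalled T-like nuclei. Some groups were not found again under the 400-gene minimum (CD4 single-positive-like and erythroid-like nuclei). With separate UMIs the CD4 single-positive-like, dendritic-like and erythroid-like nuclei were not found again. The gate defined only DP-like and mature nuclei, so CD4 single-positive-like, signalled T-like and γδ-like nuclei were not sought under it. Counts of called genes have no value with 1 library. A median of 738 UMIs per nucleus limits statements on single nuclei, and absence of UMIs in small classes is not absence of expression.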
